A study of Homo sapiens with 35 samples.

Results

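The basal and luminal keratins of breast epithelium were described in a breast cancer line. The 9 considered were KRT5, KRT6A, KRT14, KRT15 and KRT17 (basal) and KRT7, KRT8, KRT18 and KRT19 (luminal), chosen by name. Each was read from the probe set of its own with the highest mean over the 35 arrays. KRT6A and KRT17 had no probe set that named them alone, so 7 of 9 keratins, out of 22384 genes in all, were measured. KRT8 had 2 such probe sets and the other 6 had 1 each.

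Keratins are the intermediate filament proteins of epithelial cells. Each filament is built from pairs of a type II and a type I chain: KRT5 with KRT14 (and KRT15) in basal cells that sit on the basement membrane, and KRT7 or KRT8 with KRT18 or KRT19 in luminal cells, which face the lumen of a gland. In the breast these 2 sets mark the 2 epithelial layers, and tumours of the basal type keep basal keratins, often beside luminal ones. KRT6A and KRT17 are basal and stress keratins that rise in wounded epithelium.

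The cells were SUM149, a human line derived from inflammatory breast cancer of the triple-negative kind, and RNA was read on Affymetrix human transcriptome arrays. Treatments were PP242, a drug that occupies the kinase site of mTOR and stops both mTOR complexes; PP242+IR; RAD001 (everolimus), a rapamycin analog that acts on the first complex; RAD001+IR; IR alone, read here as ionizing radiation; and the solvent DMSO. Each gave polysome RNA, the messages bound to several ribosomes and under translation, and total RNA, which makes 12 groups of 3 arrays, except PP242+IR in total RNA with 2. All groups are 1 cell line, and the labels give neither dose nor time. Replicates are called biological without a statement that cultures were separate, so the spread behind each p-value is that between these samples and may be technical.

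Of 10 epithelial markers 9 were measured, and all 9 lay above 5.16, the median over all genes of the mean log2 level, with EPCAM at 14.65. Fibroblast markers lay above it in 1 of 9 measured (FAP, 9.48), leukocyte markers in 3 of 9 (among them CD68, 14.14), endothelial markers in 0 of 8 and adipocyte markers in 0 of 4. The mean over the fibroblast list ran from 4.84 to 5.29 and over the leukocyte list from 5.52 to 5.92 across the 35 arrays. There were 8 arrays that stood apart: the replication factor MCM5 lay at 6.99 to 8.11 in them, against 9.15 to 11.30 in the other 27, and FASN, which builds fatty acids, ran from 14.49 to 15.92 in them and reached at most 12.94 elsewhere. These 8 were replicate 3 of PP242, PP242+IR, RAD001 and RAD001+IR (in total RNA of PP242+IR, replicate 2). Results that rest on them are given with and without.

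Levels are the deposited log2 values, so a difference of 1 is a doubling; values of different keratins come from different probes and are not ranked against each other. KRT5, the type II chain of basal cells, averaged 15.88 over the 35 arrays (SD 0.56), and KRT14, its type I partner, 6.69 (SD 0.55). KRT15, a type I chain of basal and hair follicle cells, averaged 5.03 (SD 0.15), close to the median gene, where markers of absent cell types also lie. The luminal keratins averaged 14.89 for KRT7 (SD 0.41), 14.44 for KRT8 (SD 0.46), 14.08 for KRT18 (SD 0.54) and 12.01 for KRT19 (SD 0.70). The median SD of all genes was 0.24, which 6 of the 7 keratins exceeded; KRT15 did not. KRT8 and KRT18 lie side by side on chromosome 12, where their RefSeq spans overlap by 1006 bases, and many near-identical processed copies of both exist in the genome, so signal from such copies could not be told apart.

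mTOR inhibition is known to act hardest on messages that begin with a C followed by 4 or more pyrimidines, the 5′ TOP motif. The start of transcription was therefore read for the keratins held by the RefSeq promoter table (build GRCh38.p14), which were KRT5 and KRT8. Shown are 60 bases before the annotated start and the first 10 transcribed bases, in lower case, with the first 5 transcribed bases in capitals; KRT5 spans chr12:52520385-52520454 and KRT8 chr12:52926460-52926529, both on the minus strand.
KRT5: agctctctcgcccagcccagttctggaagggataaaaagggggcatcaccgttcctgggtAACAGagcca
KRT8: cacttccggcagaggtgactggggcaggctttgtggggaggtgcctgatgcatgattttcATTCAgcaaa
Neither start was a C followed by 4 pyrimidines (C or T), which 4.07% of 35114 promoters in the table had. The letters ATAAAA, sought on both strands in the 60 bases before the start, were found for KRT5 but not for KRT8, and 3.91% of the promoters held them there. Only the 1 start that the table gives for each gene was read, and a match or its lack says nothing of which start these cells use.

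The clearest difference the keratins showed was between RNA fractions. All 7 were higher in polysome RNA than in total RNA when the 6 treatments were averaged, by 0.10 (KRT15) to 1.02 (KRT19) on the log2 scale, against 21.2% of all genes called higher in that comparison. Of the 5 keratins with a mean level of 12 or more, 5 were called higher, as were 44.9% of the 946 genes at such levels. The median difference was 0.68 over the 7 keratins, −0.06 over all genes and 0.21 over the 946 genes (quartiles −0.12 and 0.52). Polysome and total RNA were prepared and normalized in ways not given in the sources used here, so a difference says how a message stood relative to the others in each fraction, not how many copies were bound. In these bulk samples fewer cells with a message and less of it per cell cannot be told apart.

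**Figure D1:**
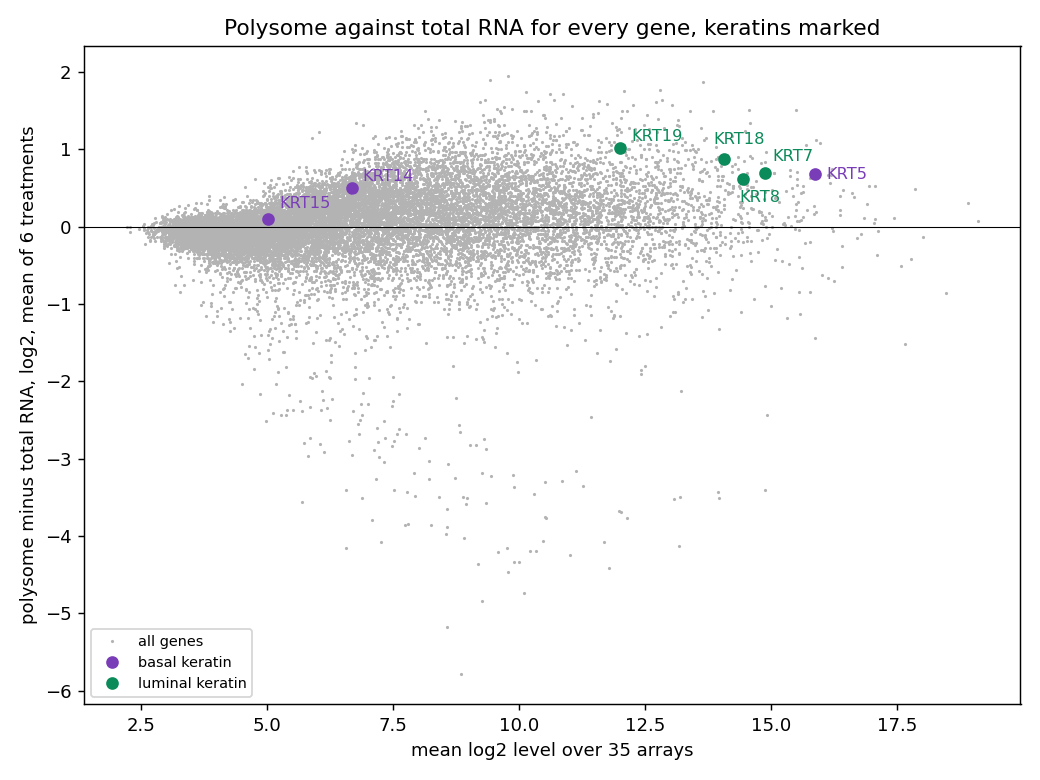
Mean log2 level over 35 arrays (x) against the log2 difference of polysome minus total RNA averaged over 6 treatments (y), 1 grey point a gene, with the 7 keratins in colour. All 7 lie above 0, from 0.10 for KRT15 to 1.02 for KRT19.

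KRT19, the shortest keratin, which lacks the tail domain of the others, showed the largest of these differences. In polysome RNA it lay at 12.71, 12.85 and 12.32 after PP242, 12.76, 12.92 and 12.51 after PP242+IR, 12.28, 12.74 and 12.10 after RAD001, 12.44, 12.45 and 11.85 after RAD001+IR, 13.02, 12.52 and 12.33 after IR and 12.49, 12.55 and 12.36 in DMSO. The matching values in total RNA were 12.28, 10.73 and 11.11 after PP242, 11.88 and 11.21 after PP242+IR, 11.92, 11.10 and 10.42 after RAD001, 11.91, 11.19 and 10.61 after RAD001+IR, 11.32, 12.11 and 12.05 after IR and 12.25, 11.16 and 12.05 in DMSO. Every polysome array lay above every total array in 5 of 6 treatments, and replicate 3 was the lowest polysome array in each of the 6. For this and the later counts of treatments without overlap, the share of all genes that separate likewise was not computed. The mean difference was 1.02 ± 0.16 (SE; limma, adjusted p = 9.66e-06), a fold of 2.03.

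KRT18, the type I partner of KRT8, separated the fractions most cleanly. Its polysome levels were 14.72, 14.82 and 14.40 after PP242, 14.70, 14.82 and 14.36 after PP242+IR, 14.32, 14.65 and 14.15 after RAD001, 14.44, 14.35 and 14.04 after RAD001+IR, 14.71, 14.66 and 14.46 after IR and 14.48, 14.53 and 14.54 in DMSO. Total RNA gave 14.03, 13.40 and 13.21 after PP242, 13.98 and 13.34 after PP242+IR, 13.86, 13.59 and 12.91 after RAD001, 13.89, 13.36 and 13.10 after RAD001+IR, 13.40, 14.04 and 14.02 after IR and 14.08, 13.54 and 13.95 in DMSO. In all 6 treatments the lowest polysome array stood above the highest total array. Averaged, the difference was 0.88 ± 0.10 (SE; limma, adjusted p = 1.48e-07).

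KRT8, the type II partner of KRT18, ranged from 14.23 to 15.22 over the 18 polysome arrays (median 14.75), against 13.47 to 14.66 over the 17 total arrays (median 14.15). Its difference averaged 0.62 ± 0.11 (SE; limma, adjusted p = 4.00e-05), and 4 of 6 treatments had no overlap between fractions. Read from its second probe set, at a mean level of 11.30, KRT8 gave 0.76 ± 0.14 (limma, adjusted p = 6.02e-05), higher in polysome RNA as well, though this probe set may read another locus.

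KRT7, a type II chain of glandular and ductal epithelium, held the narrowest polysome range of the luminal keratins. It lay at 15.04 to 15.53 in the 18 polysome arrays (median 15.17), against 14.24 to 15.10 in the 17 total arrays (median 14.43). The mean difference was 0.69 ± 0.07 (SE; limma, adjusted p = 1.63e-08), with no overlap in 5 of 6 treatments; in DMSO the highest total array, 15.10, passed the lowest polysome array, 15.09.

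Among basal keratins, KRT5 lay at 15.83 to 16.70 in polysome arrays (median 16.23) and at 14.43 to 16.46 in total arrays (median 15.45), and the mean difference was 0.68 ± 0.13 (SE; limma, adjusted p = 0.000114). KRT14 ranged from 6.19 to 7.69 in polysome arrays (median 6.85), against 5.71 to 7.25 in total arrays (median 6.31). Its difference of 0.50 ± 0.14 (limma, adjusted p = 0.00634) was not called without the 8 arrays (0.48, adjusted p = 0.0547). KRT15 lay at 4.87 to 5.40 in polysome arrays (median 5.07), against 4.83 to 5.24 in total arrays (median 4.92), and its difference of 0.10 ± 0.03 (limma, adjusted p = 0.0175) was not called without the 8 arrays (0.09, adjusted p = 0.0975). The fractions overlapped more for the basal set: every polysome array lay above every total array in 3 of 6 treatments for KRT5, 2 for KRT15 and 1 for KRT14. Luminal counts were 4 for KRT8, 5 for KRT7 and KRT19 and 6 for KRT18. Mean levels were 6.69 for KRT14, 5.03 for KRT15 and 12.01 for KRT19, but they come from different probes and are not ranked. Whether overlap goes with level was not tested.

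Taken 1 pair at a time, a polysome array was higher than the total array with the same treatment and replicate number in 17 of 17 pairs for KRT5, KRT14, KRT7, KRT18 and KRT19, in 16 of 17 for KRT8 and in 15 of 17 for KRT15. The labels do not say what the numbers mark, and the share of all genes with such pair counts was not computed. The median pair differed by 1.21 for KRT19, 0.94 for KRT18, 0.77 for KRT7, 0.71 for KRT5, 0.58 for KRT8, 0.49 for KRT14 and 0.10 for KRT15. Within single treatments 13 of 42 tests passed, all of them higher in polysome RNA: 4 keratins after PP242 (5.79% of all genes were called higher), 1 after PP242+IR (2.44%), 5 after RAD001 (7.42%), 2 after RAD001+IR (4.53%), 1 after IR (2.25%) and 0 in DMSO (2.75%; limma, with 2 of 7 and 18.9% of all genes at an unadjusted p under 0.05). Calls that held with each array left out in turn were KRT7 after PP242 (0.76), after RAD001 (0.85) and after RAD001+IR (0.78), and KRT18 after PP242 (1.10). Without the 8 arrays the 13 calls became 7.

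No treatment was shown to alter the polysome-to-total difference itself. In the interaction tests of translational efficiency (treatment minus DMSO in polysome RNA, minus the same in total RNA), 0 of 7 keratins passed for any of the 5 treatments, as did 0% of all genes (limma; 0 keratins at an unadjusted p under 0.05). Estimates lay above 0 for 7 of 7 keratins after PP242 (median 0.36), RAD001 (0.36), RAD001+IR (0.24) and IR (0.15), and for 6 of 7 after PP242+IR (0.16). With KRT8 read from its second probe set, its estimate was below 0 after PP242+IR (−0.58), RAD001+IR (−0.06) and IR (−0.16), so 7 of 7 held only after PP242 and RAD001. These 5 comparisons share the DMSO arrays, and the share of all genes above 0 was not computed. The widest 95% interval reached 1.18 to either side for KRT19 and 0.26 for KRT15, and for KRT5 after RAD001 the estimate was 0.72 with an interval from −0.18 to 1.62.

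**Figure D2:**
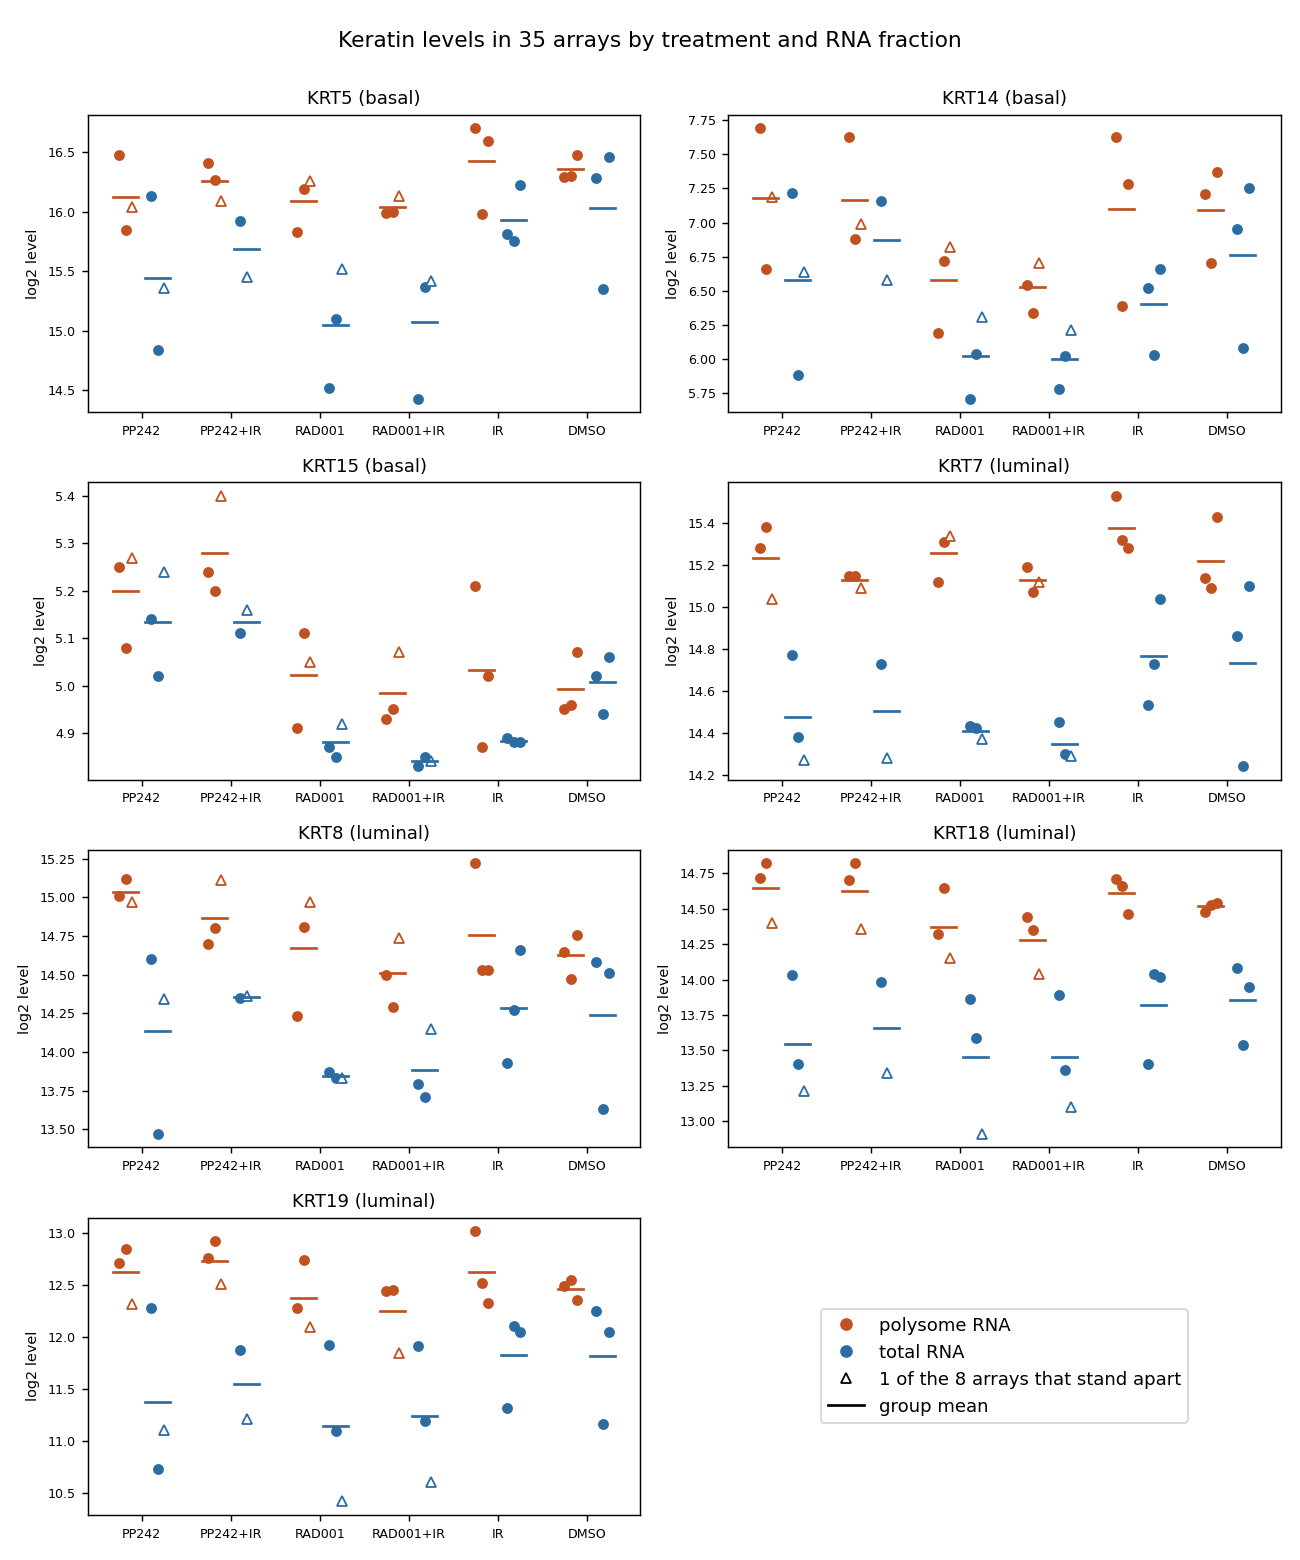
Log2 level of each keratin (y) in every array by treatment (x), polysome RNA left of total RNA, with a bar at each group mean and open triangles for the 8 arrays that stand apart. KRT18 polysome arrays (14.04 to 14.82) lie above the total arrays (12.91 to 14.08) of the same treatment in all 6 treatments, and KRT5 lies lowest in total RNA after RAD001 and RAD001+IR.

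Ordered by mean, the 6 polysome groups took the top 6 of 12 places for KRT5, KRT7, KRT8, KRT18 and KRT19, and 4 of the top 6 for KRT14 and KRT15. The spread between the highest and lowest group means was 1.38 for KRT5, 1.18 for KRT14, 0.44 for KRT15, 1.03 for KRT7, 1.20 for KRT8, 1.20 for KRT18 and 1.58 for KRT19. Neighbours in the order overlapped in 11 of 11 places for KRT5, KRT14, KRT8, KRT18 and KRT19. For KRT7 the 1 gap lay between the lowest polysome group, RAD001+IR, and the highest total group, IR; for KRT15 it lay between RAD001+IR polysome RNA and IR total RNA. The lowest 2 groups were total RNA after RAD001 and RAD001+IR for all 7 keratins. For these orders, too, the share of all genes ordered likewise was not computed.

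Mean KRT5 levels were, from high to low, 16.43 ± 0.39 (IR polysome), 16.36 ± 0.10 (DMSO polysome), 16.26 ± 0.16 (PP242+IR polysome), 16.12 ± 0.32 (PP242 polysome), 16.10 ± 0.23 (RAD001 polysome), 16.04 ± 0.08 (RAD001+IR polysome), 16.03 ± 0.59 (DMSO total), 15.93 ± 0.26 (IR total), 15.69 ± 0.33 (PP242+IR total), 15.44 ± 0.65 (PP242 total), 15.07 ± 0.56 (RAD001+IR total) and 15.05 ± 0.50 (RAD001 total) (SD). For KRT19 the group means ran 12.73 ± 0.21 (PP242+IR polysome), 12.63 ± 0.27 (PP242 polysome), 12.62 ± 0.36 (IR polysome), 12.47 ± 0.10 (DMSO polysome), 12.37 ± 0.33 (RAD001 polysome), 12.24 ± 0.34 (RAD001+IR polysome), 11.83 ± 0.44 (IR total), 11.82 ± 0.58 (DMSO total), 11.55 ± 0.47 (PP242+IR total), 11.37 ± 0.81 (PP242 total), 11.24 ± 0.65 (RAD001+IR total) and 11.15 ± 0.75 (RAD001 total) (SD). KRT5 and KRT19 shared the lowest groups, and their highest groups were IR for KRT5 and PP242+IR for KRT19.

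The KRT14 means were 7.18 ± 0.52 (PP242 polysome), 7.17 ± 0.41 (PP242+IR polysome), 7.10 ± 0.64 (IR polysome), 7.10 ± 0.35 (DMSO polysome), 6.87 ± 0.41 (PP242+IR total), 6.76 ± 0.61 (DMSO total), 6.58 ± 0.67 (PP242 total), 6.58 ± 0.34 (RAD001 polysome), 6.53 ± 0.18 (RAD001+IR polysome), 6.40 ± 0.33 (IR total), 6.02 ± 0.30 (RAD001 total) and 6.0 ± 0.22 (RAD001+IR total) (SD). In KRT15 they were 5.28 ± 0.11 (PP242+IR polysome), 5.20 ± 0.11 (PP242 polysome), 5.14 ± 0.04 (PP242+IR total), 5.13 ± 0.11 (PP242 total), 5.04 ± 0.17 (IR polysome), 5.02 ± 0.10 (RAD001 polysome), 5.01 ± 0.07 (DMSO total), 4.99 ± 0.07 (DMSO polysome), 4.98 ± 0.07 (RAD001+IR polysome), 4.89 ± 0.00 (IR total), 4.88 ± 0.03 (RAD001 total) and 4.84 ± 0.01 (RAD001+IR total) (SD). Both basal type I chains had PP242 and PP242+IR polysome groups at the top, and the KRT14 values of these overlapped those of IR and DMSO.

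KRT7 averaged 15.38 ± 0.14 (IR polysome), 15.26 ± 0.12 (RAD001 polysome), 15.23 ± 0.17 (PP242 polysome), 15.22 ± 0.19 (DMSO polysome), 15.13 ± 0.03 (PP242+IR polysome), 15.13 ± 0.06 (RAD001+IR polysome), 14.76 ± 0.26 (IR total), 14.73 ± 0.45 (DMSO total), 14.51 ± 0.32 (PP242+IR total), 14.47 ± 0.26 (PP242 total), 14.41 ± 0.03 (RAD001 total) and 14.35 ± 0.09 (RAD001+IR total) (SD). KRT8 averaged 15.04 ± 0.08 (PP242 polysome), 14.87 ± 0.21 (PP242+IR polysome), 14.76 ± 0.40 (IR polysome), 14.67 ± 0.39 (RAD001 polysome), 14.62 ± 0.15 (DMSO polysome), 14.51 ± 0.22 (RAD001+IR polysome), 14.35 ± 0.01 (PP242+IR total), 14.29 ± 0.37 (IR total), 14.24 ± 0.53 (DMSO total), 14.13 ± 0.59 (PP242 total), 13.88 ± 0.23 (RAD001+IR total) and 13.84 ± 0.02 (RAD001 total) (SD). KRT18 averaged 14.65 ± 0.22 (PP242 polysome), 14.62 ± 0.24 (PP242+IR polysome), 14.61 ± 0.13 (IR polysome), 14.52 ± 0.03 (DMSO polysome), 14.37 ± 0.26 (RAD001 polysome), 14.27 ± 0.21 (RAD001+IR polysome), 13.85 ± 0.28 (DMSO total), 13.82 ± 0.36 (IR total), 13.66 ± 0.46 (PP242+IR total), 13.55 ± 0.43 (PP242 total), 13.45 ± 0.49 (RAD001 total) and 13.45 ± 0.41 (RAD001+IR total) (SD). PP242 polysome RNA held the top place for KRT8 and KRT18 and IR polysome RNA for KRT7, each overlapping the next group.

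Set against DMSO, the treatments left every keratin short of the threshold. In polysome RNA 0 of 7 keratins were called in any of the 5 treatments, against 0.268% of all genes after PP242, 0.0938% after PP242+IR and 0% after RAD001, RAD001+IR and IR (limma). In total RNA 0 of 7 were called, against 0.125% after PP242, 0.0268% after PP242+IR, 0.00893% after RAD001+IR and 0% after RAD001 and IR. At an unadjusted p under 0.05 there was 1 keratin each in polysome RNA after PP242 (8.44% of all genes) and PP242+IR (5.7%), and in total RNA 2 after RAD001 (7.63%) and 3 after RAD001+IR (6.23%). The 95% interval reached at most 0.88 to either side for KRT19, 0.80 for KRT14, 0.71 for KRT5, 0.60 for KRT8, 0.57 for KRT18, 0.39 for KRT7 and 0.19 for KRT15. KRT8 after PP242 in polysome RNA lay at 15.01, 15.12 and 14.97, against 14.65, 14.47 and 14.76 in DMSO, which did not overlap, yet its difference of 0.41 was not called (limma, adjusted p = 0.784). In polysome RNA, KRT15 after PP242 and PP242+IR, KRT5 after RAD001 and RAD001+IR, and KRT14 and KRT18 after RAD001+IR did not overlap DMSO either. In total RNA the same held for KRT15 after PP242+IR, RAD001, RAD001+IR and IR. How many of all genes lacked such overlap was not computed.

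The keratins leaned lower in total RNA under RAD001. Estimates were below 0 for 7 of 7 after RAD001 and after RAD001+IR, with a median of −0.40 in each, against −0.02 and −0.03 over all genes. Both comparisons use the same DMSO arrays. The 7 keratins were read from the same RNA, so their signs are not separate observations, and the share of all genes below 0 was not computed. For KRT5 the estimate was −0.98 after RAD001 (limma, adjusted p = 0.4) and −0.96 after RAD001+IR (adjusted p = 0.587), and for KRT14 −0.74 after RAD001 (0.641) and −0.75 after RAD001+IR (0.773). KRT19 gave −0.67 after RAD001 and −0.59 after RAD001+IR. Arrays were also weighted by the spread of their own residuals in the fit (weights from 0.105 to 7.06), with no outside measure of quality. With these weights 4.46% of all genes were called after RAD001+IR in total RNA, 1.96% of all genes lower. The lower ones held 5 keratins: KRT5 (−1.04, limma, adjusted p = 0.0144), KRT7 (−0.53, 0.0224), KRT8 (−0.71, 0.0438), KRT19 (−0.97, 0.0442) and KRT18 (−0.63, 0.0478). Of 10 alternative settings, 9 kept 0 keratin calls against DMSO in total RNA.

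Averaging each inhibitor's effect with and without IR doubled the arrays on each side, all counted as independent by the fit, and 1 keratin then passed in total RNA. KRT5 fell under RAD001, against 0.491% of all genes called lower. It lay at 14.52, 15.10 and 15.52 after RAD001 and 14.43, 15.37 and 15.42 after RAD001+IR, against 15.81, 15.75 and 16.22 after IR and 16.28, 15.35 and 16.46 in DMSO. Same-numbered arrays with RAD001 lay close to each other, those without it less so. The added arrays may therefore not be independent, and the p-value below may be too small. The groups overlapped: DMSO replicate 2, at 15.35, lay below 3 of the 6 arrays with RAD001. The means were 15.06 with RAD001 and 15.98 without, a difference of −0.92 ± 0.22 (SE; 95% interval −1.37 to −0.47; limma, adjusted p = 0.0447). This call was lost without RAD001 replicate 1 (−0.79, 0.084), RAD001+IR replicate 1 (−0.76, 0.11), IR replicate 2 (−0.96, 0.11), IR replicate 3 (−0.84, 0.141), DMSO replicate 1 (−0.86, 0.119) or DMSO replicate 3 (−0.81, 0.156), and without the 8 arrays (−1.12, 0.0579; limma, adjusted p in each case).

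The other 6 keratins ran the same way under RAD001 in total RNA without passing, from −0.09 for KRT15 to −0.63 for KRT19 (limma, adjusted p = 0.557 and 0.264); 6 of the 7 had an unadjusted p under 0.05, as did 14.3% of all genes. In polysome RNA, RAD001 gave 0 of 7 calls, against 0.00893% of all genes (limma; 1 keratin and 5.38% of all genes at an unadjusted p under 0.05). KRT5 stood there at 16.07 with RAD001 and 16.39 without, a difference of −0.32 ± 0.22 (adjusted p = 0.906), and KRT14 at 6.55 with RAD001 and 7.10 without, a difference of −0.55 ± 0.24 (adjusted p = 0.906). The KRT5 change was not shown to differ between the fractions: the interaction was 0.72 after RAD001 and 0.64 after RAD001+IR (limma, adjusted p = 1 for each), and that of the average was not tested.

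KRT15 rose under PP242 in polysome RNA, by little and at a low level. It lay at 5.25, 5.08 and 5.27 after PP242 and 5.24, 5.20 and 5.40 after PP242+IR, against 5.21, 4.87 and 5.02 after IR and 4.95, 4.96 and 5.07 in DMSO. IR replicate 1, at 5.21, lay above 2 of the 6 PP242 arrays, so the groups overlapped. The means were 5.24 with PP242 and 5.01 without, a difference of 0.22 ± 0.06 (SE; limma, adjusted p = 0.0437), where 0.59% of all genes were called higher. Without the 8 arrays it was not called (0.18, adjusted p = 0.302). It was also lost without PP242 replicate 1 (0.21, 0.101) or 3 (0.21, 0.133), PP242+IR replicate 1 (0.23, 0.0567) or 3 (0.19, 0.161), IR replicate 2 (0.18, 0.143) or 3 (0.22, 0.11), or DMSO replicate 1 (0.21, 0.104), 2 (0.22, 0.0946) or 3 (0.24, 0.0592). In total RNA PP242 gave 0 of 7 calls, against 1.02% of all genes (limma; 2 keratins and 14.1% of all genes at an unadjusted p under 0.05), with KRT15 at 0.19 (adjusted p = 0.141) and KRT5 at −0.42 (0.445).

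**Figure D3:**
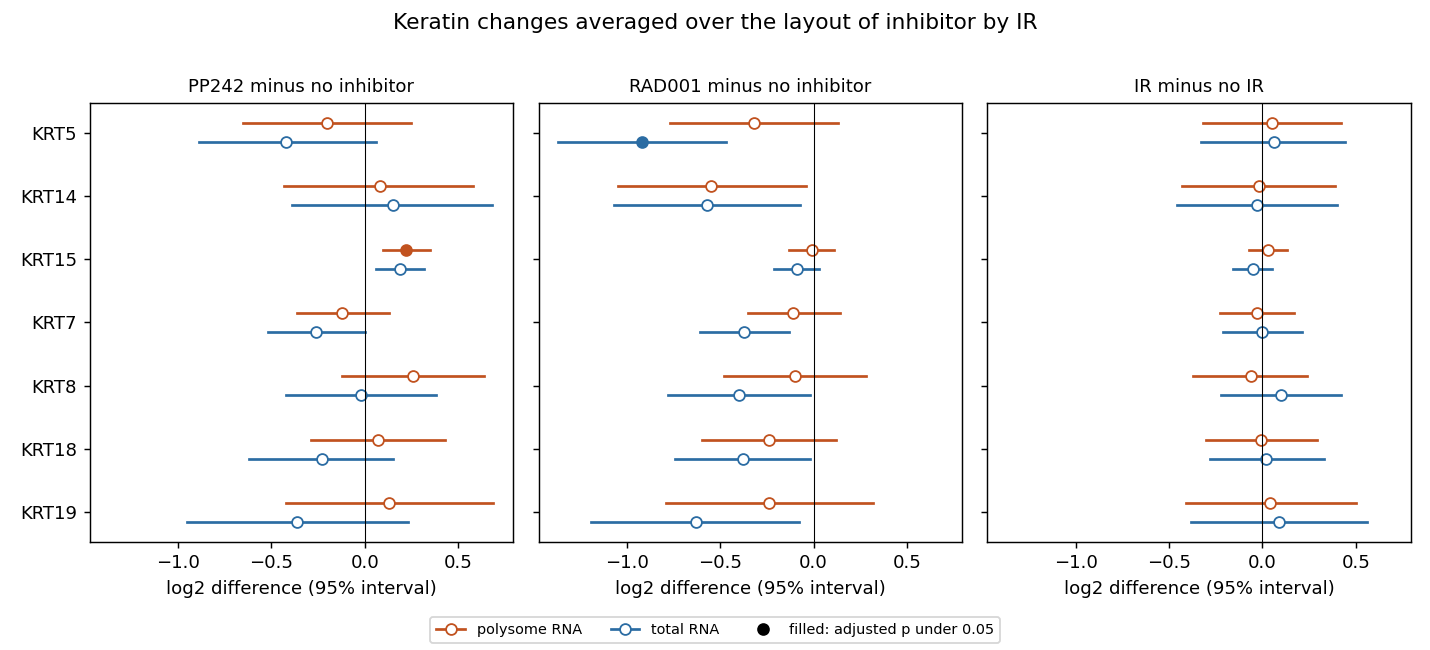
Log2 difference with its 95% interval (x) for each keratin (y), for PP242 and RAD001 averaged over cells with and without IR, and for IR averaged over 3 backgrounds, with polysome RNA above total RNA. Filled points passed an adjusted p of 0.05: KRT5 under RAD001 in total RNA (−0.92) and KRT15 under PP242 in polysome RNA (0.22).

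Differences with IR were small. Averaged over PP242, RAD001 and DMSO backgrounds, differences ran from −0.06 to 0.05 in polysome RNA and from −0.05 to 0.10 in total RNA, with 0 of 7 keratins and 0% of genes called in either fraction (limma; 0 keratins at an unadjusted p under 0.05). The widest 95% intervals reached 0.45 and 0.47 to either side. In irradiated cells, an inhibitor with IR against IR alone gave 0 of 7 calls in each of 4 comparisons, where the share of genes called for PP242+IR was 0.13% (polysome) and 0.0268% (total), and for RAD001+IR 0% (polysome) and 0.00447% (total; limma). At an unadjusted p under 0.05 there was 1 keratin for PP242+IR in each fraction (polysome 5.71% of all genes, total 5.53%), and for RAD001+IR there were 2 in total RNA (6% of all genes) and 0 in polysome RNA.

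The 2 inhibitors, which are not structural relatives, were also set against each other; the 6 comparisons gave 0 calls of 42 tests (limma). Averaged with and without IR, 0.273% of all genes were called in polysome RNA and 0.0893% in total RNA; without IR the shares were 0.0268% (polysome) and 0.00447% (total), and with IR 0.00447% (polysome) and 0% (total). In the averages, the 7 keratins lay above 0 in PP242 relative to RAD001 in total RNA (median 0.28, with 3 keratins and 7.3% of all genes at an unadjusted p under 0.05). How many of all genes lay above 0 there was not computed. KRT14 averaged 6.73 with PP242 and 6.01 with RAD001 in total RNA, a difference of 0.72 with a 95% interval from 0.18 to 1.25 (limma, adjusted p = 0.478). KRT15 averaged 5.14 with PP242 and 4.86 with RAD001, a difference of 0.28 with an interval from 0.15 to 0.41 (adjusted p = 0.0971).

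The 8 arrays that stand apart were low for some luminal keratins and not for others. KRT18 was lower in 8 of 8 of them than in the other arrays of its group, by −0.81 to −0.34, and KRT19 in 8 of 8, by −1.09 to −0.33. KRT7 was lower in 7 of 8 (−0.45 to 0.13). KRT8, the filament partner of KRT18, was higher in 6 of 8 (−0.10 to 0.45), as were KRT14 in 6 of 8 (−0.59 to 0.43) and KRT15 in 7 of 8, and KRT5 was higher in 4 and lower in 4 (−0.46 to 0.71). These are differences between single arrays and the 1 or 2 others of their group, and were not tested. How large a share of all genes lay lower, or higher, in as many of these arrays was not computed. Averaged over treatments, KRT5, KRT7, KRT8, KRT18 and KRT19 were still called higher in polysome RNA without the 8 arrays.

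**Figure D4:**
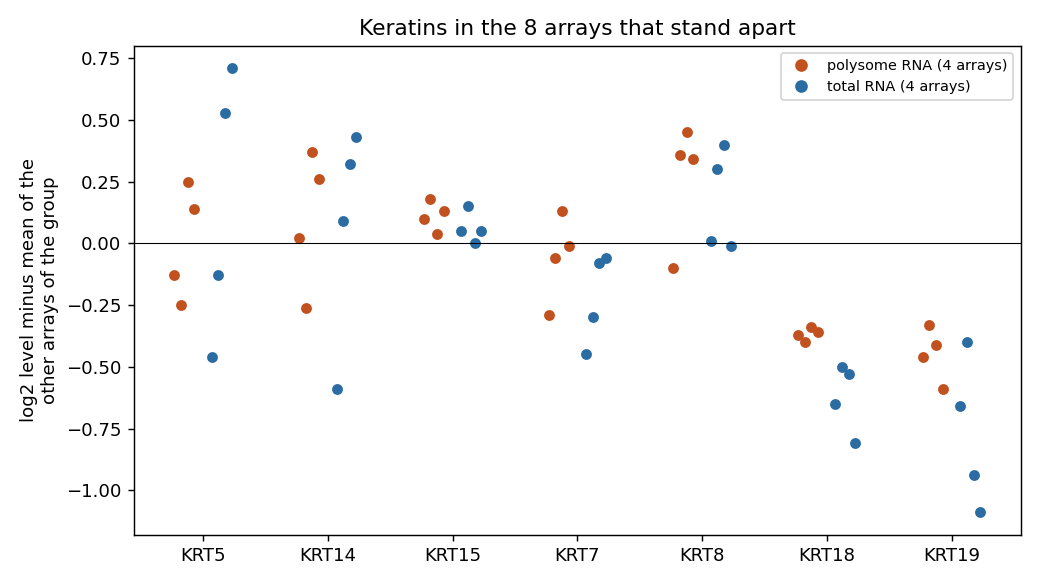
Log2 level in each of the 8 arrays that stand apart, minus the mean of the other arrays of its group (y), for each keratin (x), polysome RNA left of total RNA. KRT18 (−0.81 to −0.34) and KRT19 (−1.09 to −0.33) lie below 0 in all 8, and KRT8 lies above 0 in 6.

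Replicates of a group also ranked alike for some keratin pairs. In the 11 groups of 3 arrays, KRT5 and KRT14 had their highest value in the same array in 11 and their lowest in the same array in 8. KRT18 and KRT19 shared the highest array in 9 and the lowest in 9, whereas KRT8 and KRT18 shared them in 6 and 3. Likeness was not confined to these pairs: KRT5 and KRT15 shared them in 5 and 9, and KRT7 and KRT18 in 7 and 8. At the other end, KRT14 and KRT18 shared them in 3 and 1. After each gene was centred on its own mean, the root-mean-square difference over the 35 arrays was 0.30 for KRT5 and KRT14, 0.21 for KRT18 and KRT19, and 0.36 for KRT8 and KRT18. Points of 1 array share its RNA and its normalization, so these are descriptions without a test. How often pairs of other genes rank as alike was not computed.

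For the 3 keratins with the largest SD the closest genes by this measure, of 11191 at or above the median level, were as follows. KRT19 was closest to KRT18 (0.21), NIBAN2 (0.26) and the microRNA gene MIR622 (0.26). The probe set named MIR622 had a mean level of 13.12, and whether it reads another message, such as a KRT18 copy, was not tested. KRT5 was closest to KRT6C (0.19), a near-identical relative of KRT6A, then to C6orf47 and FKBP2 (0.25 each). KRT6A had no probe set of its own, and whether that of KRT6C reads KRT6A messages was not tested. FKBP2 is a prolyl isomerase of the endoplasmic reticulum. KRT14 was closest to KRT16P3 (0.19), KRT16P2 (0.24) and KRT16 (0.27), a type I keratin of stressed epithelium and pseudogene copies of it. KRT14, KRT16 and these copies share long stretches of sequence, so their probes may read each other's messages and the likeness cannot be assigned to separate genes.

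Among 39 other keratins measured of 44, 13 were called higher and 2 lower in polysome RNA averaged over treatments. Of all genes 21.2% were called higher and 24.5% lower, and these shares stand beside the counts of the lists below. No list was tested as a set. The median was 0.06 against −0.06 over all genes, and 26 of the 39 had a mean at or below the median gene. KRT80, a type II keratin of cell junctions, was higher in polysome RNA by 1.14 (limma, adjusted p = 2.21e-09), KRT84 by 0.22 (0.000136), KRT83 by 0.45 (0.000199) and KRT6C by 0.61 (0.00022). Whether the KRT6C value holds KRT6A messages was not tested. KRT84 had a mean level of 4.81, below the median gene (5.16), where markers of absent cell types also lie. Under PP242, where 0.63% of all genes were called lower in total RNA, KRT80 fell there by 1.02 on the log2 scale (limma, adjusted p = 0.00498). That call was lost without PP242+IR replicate 2 (−0.79, 0.114) and without the 8 arrays (−0.81, 0.142). In polysome RNA, where 1.43% of all genes were called lower, its call under PP242 (−0.65, adjusted p = 0.0497) was lost with any 1 of the 12 arrays left out. It was the only 1 of the 39 called for either inhibitor in these averages.

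Of 13 other intermediate filament genes, 4 were higher (21.2% of all genes) and 1 lower (24.5%) in polysome RNA (median −0.01). Higher were the lamin LMNB2 by 0.89 (limma, adjusted p = 0.000696), vimentin VIM by 0.25 (0.00264), the neuronal filament INA by 0.61 (0.00278) and the lamin LMNA by 0.27 (0.0055). VIM and LMNA were not called after quantile normalization (0.12, 0.113, and 0.15, 0.158). No gene of this list was called in the inhibitor or IR averages (limma). Of all genes, the PP242 average called 0.59% higher and 1.43% lower in polysome RNA, and 1.02% in either direction in total RNA. The RAD001 average called 0.00893% in polysome RNA, and 0.344% higher and 0.491% lower in total RNA. With IR the share was 0% in both fractions.

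Desmosomes anchor keratin filaments at cell junctions. Of 16 desmosome genes and keratin linkers, 5 were higher (21.2% of all genes) and 2 lower (24.5%) in polysome RNA (median −0.05). The plakophilin PKP3 was higher by 1.17 (limma, adjusted p = 6.19e-10), plakoglobin JUP by 0.84 (1.74e-08), PKP1 by 0.60 (3.06e-06) and PERP by 0.99 (6.26e-06). PPL, periplakin, which links keratins to the membrane, rose under PP242 in polysome RNA by 0.83 (adjusted p = 0.00252), and that call held with each array left out. PKP3 fell under RAD001 in total RNA by 0.68 on the log2 scale (adjusted p = 0.0484), a call lost with 9 of 12 arrays left out and without the 8 arrays (−0.69, 0.115).

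Hemidesmosomes tie KRT5 and KRT14 filaments to the basement membrane. Of 9 such genes 5 were measured, with 2 higher (21.2% of all genes) and 1 lower (24.5%) in polysome RNA (median 0.19). The tetraspanin CD151 was higher by 1.63 (limma, adjusted p = 8.06e-08) and the integrin ITGB4 by 0.56 (0.0238; 0.42, 0.0919 without PP242+IR total replicate 2, and 0.46, 0.0666 after quantile normalization), and the plakin DST was lower, at −0.29 (0.0092; −0.21, 0.0909 with arrays centred on their medians). DST rose in total RNA under PP242 (0.64, adjusted p = 0.0474; 0.393% of all genes were called higher) and RAD001 (0.66, 0.0416), which share their untreated arrays; the calls were lost with 8 of 11 and 8 of 12 arrays left out, and that under PP242 also without the 8 arrays (0.57, 0.306).

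Of 22 squamous differentiation genes, 2 were higher (21.2% of all genes) and 7 lower (24.5%) in polysome RNA (median −0.10). SFN, a 14-3-3 protein of keratinocytes, was higher by 1.08 (limma, adjusted p = 7.16e-12) and the transglutaminase TGM1 by 0.41 (0.000151). The protease KLK5 was lower, at −0.22 (limma, adjusted p = 0.00108), as was CSTA, a protease inhibitor, at −1.01 (0.00133). KLK5 had a mean level of 4.95, below the median gene (5.16). Under RAD001 in total RNA, SFN fell by 0.61 (adjusted p = 0.0175) and TGM1 by 0.60 (0.0416), lost with 4 and 8 of 12 arrays left out.

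Of 13 other basal identity genes measured, 4 were higher (21.2% of all genes) and 2 lower (24.5%) in polysome RNA (median 0.14). TRIM29 by 0.65 (limma, adjusted p = 3.85e-07), VGLL1 by 0.50 (0.000365) and P-cadherin CDH3 by 0.44 (0.000598) were higher, and caveolin CAV2, at −0.45 (1.78e-06), was lower. VGLL1 and CAV2 had mean levels of 5.08 and 4.86, below the median gene (5.16). Under PP242, ID4, a repressor of differentiation factors, fell by 0.89 in polysome RNA (adjusted p = 0.000402, held with each array left out), with a change of −0.58 in total RNA (0.0434; lost with 8 of 11 left out, and −0.52, 0.266 without the 8 arrays). VGLL1 fell by 0.72 under PP242 in polysome RNA (0.028; lost with 7 of 12 left out). Luminal identity genes, 18 measured, had 5 higher (21.2% of all genes) and 1 lower (24.5%) in polysome RNA (median 0.05). The receptor ERBB3 by 0.46 (limma, adjusted p = 9.76e-06), ALDH1A3 by 0.90 (0.0007) and SLPI by 0.88 (0.00258, and 0.72, 0.056 without the 8 arrays) were higher, and CD24, at −0.78 (3.29e-05), was lower. ALDH1A3, a retinaldehyde dehydrogenase of luminal progenitors, rose under PP242 in polysome RNA by 1.37 (0.0311; lost with 6 of 12 left out).

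Of 15 epithelial transcription factors measured, 4 were higher (21.2% of all genes) and 2 lower (24.5%) in polysome RNA (median 0.13). TFAP2C was higher by 0.45 (limma, adjusted p = 0.000195), OVOL2 by 0.28 (0.0016) and OVOL1 by 0.61 (0.0341; lost with 8 of 35 arrays left out, and 0.36, 0.177 with array weights), and ZNF750 was lower, at −0.15 (0.0144; −0.10, 0.149 without the 8 arrays, −0.04, 0.572 after quantile normalization and −0.07, 0.263 with arrays centred on their medians). The mean level of ZNF750 was 4.29, below the median gene (5.16). ELF3 rose under PP242 in polysome RNA by 0.79 (limma, adjusted p = 0.0477), lost with any 1 of 12 arrays left out. Among 8 keratin-binding partners, 3 were higher (21.2% of all genes) and 0 lower (24.5%) in polysome RNA (median 0.12). Higher were FAM83H, which organises keratin filaments, by 0.68 (limma, adjusted p = 2.31e-08), TRADD by 0.64 (3.19e-07) and EPPK1 by 0.32 (0.0407). The EPPK1 call was lost with 17 of 35 arrays left out, without the 8 arrays (0.31, 0.122) and with array weights (0.12, 0.402). KLHL24, the adaptor of a ubiquitin ligase that directs KRT14 protein to degradation, rose under PP242 in polysome RNA by 1.18 (adjusted p = 0.000836, held with each array left out) and in total RNA by 1.17 (0.00352; 1.02, 0.0634 without PP242+IR total replicate 2). It also rose under RAD001 in total RNA by 0.92 (0.028; lost with 6 of 12 left out, and 0.69, 0.0579 without the 8 arrays), where 0.344% of all genes were called higher.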

How the data were processed

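RNA of SUM149 cells was read on 35 arrays. Values for 65029 probe sets were deposited by the authors as log2 levels; that scale is inferred from the values (1.85 to 19.9), and no source used here gives the background correction, the normalization or the genome build. The labels' protocols describe mouse tissue and were not used. The platform table named 23077 probe sets with 1 symbol, 1357 with several and 40595 with none; 1 probe set a symbol, the one with the highest mean, left 22384 genes. 1 fit of 12 group means (limma 3.58.1, R 4.3.3, lmFit and eBayes, 23 residual and 2.69 prior degrees of freedom) gave 38 comparisons, with Benjamini-Hochberg adjusted p over all genes and calls at an adjusted p under 0.05. In simulated data with independent noise in each array, it recovered 85 of 100 genes changed by 1 for the RAD001 average in total RNA. For the mean polysome difference it recovered 99 of 100. The simulation held no link between replicates and no arrays that stand apart. Differences are log2, the group named first minus the other, ± SE. Precision is limited by the number of arrays. The keratins and gene lists were chosen with earlier results of these data known; of each list, up to 4 called genes with the smallest adjusted p were named. Alternatives were quantile normalization, median centring, a filter at the median gene, a replicate block, array weights, eBayes with trend, only the groups compared, without the 8 arrays, each array left out, the second KRT8 probe set, and the design text's threshold.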

Additional observations from a re-analysis of the deposited data

How the results depend on the processing

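No called keratin estimate changed sign under the alternatives run, whereas 83 of all 266 keratin estimates, none called and at most 0.34 in size, did under at least 1 of them (8 of 38 for KRT8 read from its second probe set). All 7 keratins stayed higher in polysome RNA, averaged over treatments, with each of 35 arrays left out (7 of 7 in every case), but 0 passed the threshold on fold change that the series' design text names, and KRT15 was not called with array weights (0.08, adjusted p = 0.0749). The 13 calls within treatments became 7 with quantile normalization, 7 without the 8 arrays, 2 with only the groups compared, 0 at the design text's threshold and 18 with the replicate block, and ran from 9 to 17 with 1 array left out. The 2 calls in the averages of inhibitor and IR effects became 0 with quantile normalization, median centring, only the groups compared, the design text's threshold or without the 8 arrays, 1 with eBayes trend, 1 with the filter on low values, which removes KRT15, 6 with array weights, and 0 to 3 with 1 array left out. The KRT5 call under RAD001 in total RNA ended with quantile normalization (−0.77, 0.0534), median centring (−0.94, 0.0708), eBayes trend (0.0503) and only the groups compared (0.227; limma, adjusted p), and the KRT15 call under PP242 with the first 2 (0.257 and 0.168) and the last (0.115). Array weights gave 5 calls against DMSO in total RNA, where there were 0. The labels do not say what the replicate numbers mark, and not every same-numbered pair deviated together, so the arrays were not treated as paired: same-numbered arrays of different groups had a median correlation of residuals of 0.12 (−0.46 to 0.87), over 0.1 in 102 of 187 pairs, against a median of −0.05 and 81 of 374 for other numbers, and 27 of 35 arrays were closest on average to their own number, a hint from the data and not the design. With the replicate block the averages gave 5 calls, KRT5 under RAD001 in total RNA (adjusted p = 0.0218) and KRT15 under PP242 in polysome (0.0183) and total RNA (0.0429) and in PP242 against RAD001 in polysome (0.24, 0.0434) and total RNA (0.29, 0.0227). Of 18 calls of list genes for the inhibitors, all 18 were lost at the design text's threshold, 10 were lost with only the groups compared, 8 with median centring, 7 without the 8 arrays and 3 with eBayes trend. The cause of these changes was not tested beyond the alternatives' own construction. Detection calls were not used here, so whether KRT15 stood above background is unknown.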
